A study of Mus musculus with 8 samples.

Results

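The early growth response (EGR) transcription factors and the NAB proteins that bind and restrain them were followed in mouse retina. The set holds 6 of the 26824 genes of the count table: Egr1, Egr2, Egr3, Egr4, Nab1 and Nab2, taken by gene symbol. They were chosen by their measured values in these libraries, namely the higher Egr1 and the different Nab2 counts under the KO label. Their difference between the groups is therefore given as a description, and no support is drawn from it. Whole-retina RNA was sequenced from 3 libraries labelled WT and 5 labelled Kv8.2 KO (WT 1 to WT 3 and KO 2 to KO 6). Kv8.2 is a potassium channel subunit of photoreceptors, encoded by Kcnv2. Each library came from 1 untreated mouse aged 1 month, housed with alternating light and dark, and pooled its 2 retinas. The allele, strain and sex of the animals are not given in the sources used here, and each group is known only by its label.

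EGR proteins are zinc finger transcription factors of the immediate early class. Their genes are silent or low in resting cells and are switched on within minutes, without new protein synthesis, when growth factors, synaptic activity or injury signal through the ERK kinases to serum response factor (SRF). NAB proteins bind EGR proteins and turn them from activators into repressors. Nab2 is itself described as an EGR target, which makes it a delayed brake, while Nab1 is described as more constant. In the retina Egr1 is known from amacrine and bipolar cells, where its level follows light and eye growth, and from Muller glia after injury.

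The libraries held 17759146 to 25188870 counts. Kcnv2, the gene named by the label, was present in every library, at 519 to 551 counts per 1000000 (CPM) in WT. KO 3 to KO 6 lay below every WT library, at 398 to 447 CPM, and KO 2 lay above every one, at 585 CPM. Its log2 difference was -0.24 (edgeR adjusted p = 0.275) and -0.35 without KO 2 (adjusted p = 0.0298). The libraries are called by their labels throughout. KO 4, KO 5 and KO 6 stood apart from the other 5 libraries, with mitochondrial transcripts at 3.03% to 3.70% of counts, against 5.23% and 6.52% in KO 3 and KO 2 and 7.09% to 7.92% in WT. As WT has no library among KO 4 to KO 6, that set and the label cannot be told apart there. Results are also given for KO 2 and KO 3 against WT, as the values within the remaining libraries. Those 2 libraries are not a uniform set. Their counts differed from each other with a chi-square per degree of freedom of 110. That value was 5.85 to 6.92 among KO 4 to KO 6, and 44 between KO 2 and KO 4. Lens markers took 3.96% of the counts of KO 3 and at most 0.116% of those of any other library. The 7 rod markers of retina summed to 36800 to 54300 CPM and none was absent from the tested genes.

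Short stretches of promoter are shown because they hold letters of kinds described for the induction of early genes and for binding by EGR proteins. Whether these matches act on these genes was not tested. The windows are the 250 bases before a RefSeq start (GRCm38.p6), and 4 of the 6 genes had at least 1 window. Egr1 and Egr3 had no window and were not searched. They were searched on both strands for the EGR site (GCGNGGGCG), the CArG box bound by SRF, and the cAMP response element (TGACGTCA) with its core ACGTCA, which lies within the full element. Capitals mark the match, and negative numbers count bases before the start. Nab1 held 3 EGR sites, all within an exon of the GENCODE M21 annotation, and all 3 overlap the GC-box letters GGGCGG on one strand or the other. The 5 Egr2 windows held 2 distinct CArG boxes, and the one shown is followed by a response element core. Egr4 held 2 cores.
Nab1, -141 to -133, chr1:52500570-52500599, minus strand: gccccgcggcCGCCCACGCcgggatctgcg
Nab1, -109 to -101, chr1:52500538-52500567, minus strand: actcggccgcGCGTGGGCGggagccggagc
Nab1, -38 to -30, chr1:52500467-52500496, minus strand: gcggggcgggGCGGGGGCGgcggaggtggc
Egr2, -72 to -63, chr10:67537787-67537816, plus strand: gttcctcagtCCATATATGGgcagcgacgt
Egr2, -56 to -51, chr10:67537801-67537830, plus strand: atatgggcagcgACGTCAcgggtattgaag
Egr4, -178 to -173, chr6:85513750-85513779, minus strand: gcggcggcagcaACGTCAcaggccgagctt
Egr4, -110 to -105, chr6:85513682-85513711, minus strand: gtttggtcatttACGTCAcggcgccagggc
Of all 32851 windows, 4.70% held an EGR site, 1.47% a CArG box and 6.47% the core. The Nab2 window held none of these letters. A match is only a run of letters.

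Egr1 (ENSMUSG00000038418, GRCm38 chromosome 18, 34859823 to 34864984, plus strand), the founding member of the family, was the EGR gene with most of the counts and, of those that passed the filter on low counts, the one with the largest log2 difference. Its level was 12.4, 14.8 and 18.5 CPM in WT 1, WT 2 and WT 3. It was 161 CPM in KO 2, 128 in KO 3, 120 in KO 4, 136 in KO 5 and 76.9 in KO 6. The groups did not overlap, and the lowest KO library, KO 6, was far above the highest WT library. WT averaged 15.2 ± 3.04 CPM (SD, n = 3) and KO averaged 125 ± 30.7 (SD, n = 5). Fitted over all 8 libraries, the difference was 3.03 on the log2 scale (SE 0.24), or 8.17-fold. It ranked 37 by log2 fold change among the 14891 genes whose average log2 CPM reached 1.

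Egr2 (ENSMUSG00000037868, chromosome 10, 67535475 to 67542188, plus strand), best known for hindbrain patterning and for myelination by Schwann cells, was barely detected. It had 1 count in WT 1 and 0 in WT 2 and WT 3. The KO libraries had 7, 0, 2, 4 and 7 counts, in the order KO 2 to KO 6. A floor of 3 counts equals 0.130 to 0.164 CPM at these depths, so only KO 2, KO 5 and KO 6 were above it. Summed over libraries, 20 counts in KO and 1 in WT gave a ratio of 11.7, with an exact 95% interval of 1.87 to 486 that covers counting error only. It did not pass the filter on low counts. Fitted without that filter, its log2 difference was 3.11 (SE 1.31).

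Egr3 (ENSMUSG00000033730, chromosome 14, 70077203 to 70082614, plus strand), known from muscle spindles and synaptic plasticity, was low in every library. It was at 0.603, 0.705 and 0.488 CPM in WT 1 to WT 3, on 11 to 15 counts. It was at 0.955, 1.76, 0.788, 1.02 and 0.729 CPM in KO 2 to KO 6, on 16 to 37 counts. The KO libraries all lay above WT, but KO 6 exceeded WT 2 by a few hundredths of a CPM, and the highest value was that of KO 3, the library with lens transcripts. The log2 fold change was 0.81 (SE 0.37), and it was 0.55 without KO 3.

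Egr4 (ENSMUSG00000071341, chromosome 6, 85511121 to 85513589, minus strand), known from brain and from male germ cells, was also low and its groups overlapped. It was at 0.274, 0.705 and 0.133 CPM in WT 1 to WT 3. In KO 2 to KO 6 it was at 0.260, 0.475, 1.43, 0.716 and 0.547 CPM. KO 4 was the highest library and WT 3 the lowest, on 29 and 3 counts. The log2 fold change was 0.86 (SE 0.64), but it was 1.75 without WT 2, 0.45 without WT 3 and 0.41 without KO 4.

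Nab1 (ENSMUSG00000002881, chromosome 1, 52457294 to 52500679, minus strand), the corepressor found in most tissues, had similar group means. It was at 37.7, 37.1 and 38.8 CPM in WT 1 to WT 3. It was at 44.4, 40.9, 37.1, 37.2 and 30.1 CPM in KO 2 to KO 6. The WT libraries lay within the range of the KO libraries, of which KO 2 was the highest and KO 6 the lowest. WT averaged 37.9 ± 0.852 CPM (SD, n = 3) and KO 37.9 ± 5.32 (SD, n = 5). The fitted log2 difference was 0.0023 (SE 0.12) and turned to -0.037 when libraries were scaled by library size alone.

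Nab2 (ENSMUSG00000025402, chromosome 10, 127660918 to 127668568, minus strand), the inducible corepressor, was higher in every KO library than in every WT library. It was at 12.0, 13.6 and 11.3 CPM in WT 1 to WT 3. It was at 20.2 CPM in KO 2, 23 in KO 3, 31.8 in KO 4, 33.8 in KO 5 and 28.2 in KO 6. KO 2 and KO 3 lay between WT and the other KO libraries. WT averaged 12.3 ± 1.19 CPM (SD, n = 3) and KO 27.4 ± 5.73 (SD, n = 5), which gave a log2 difference of 1.15 (SE 0.18), or 2.22-fold. In these bulk samples, more cells of a type and more RNA per cell cannot be told apart, for Nab2 as for Egr1.

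**Figure D1:**
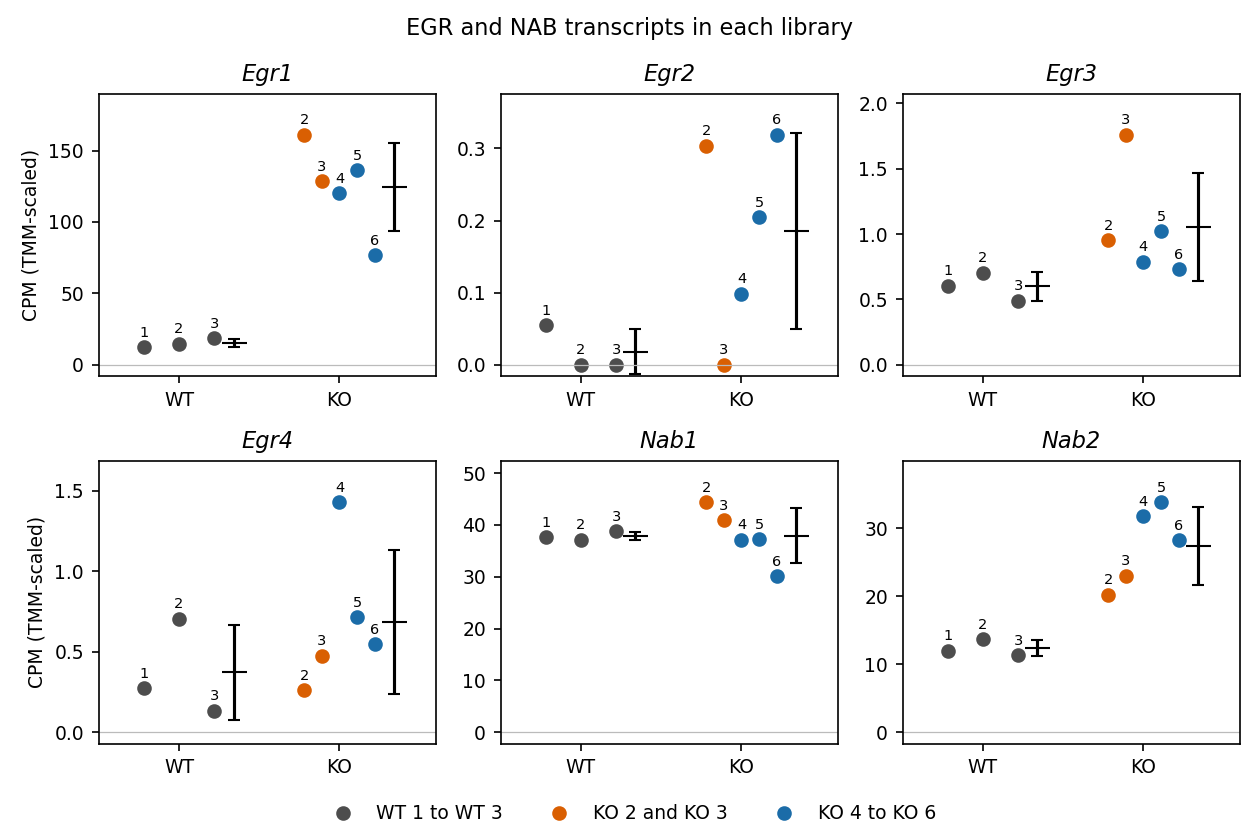
Level of each EGR and NAB gene in each library, as TMM-scaled CPM on linear axes of differing range, with the library number above each point and the group mean ± SD as a bar (n = 3 WT, n = 5 KO). Egr1 and Nab2 are higher in all 5 KO libraries than in all 3 WT libraries, Egr2 to Egr4 stay under 2 CPM, and the Nab1 groups overlap.

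In the fit across all genes, Egr1 and Nab2 were called and Egr3, Egr4 and Nab1 were not, so 2 of the 5 fitted genes were called, while 7.58% of the 20167 tested genes were called in either direction. Those 2 are the genes that led to the choice of the set, so nothing is read from this count. The Nab2 call was lost without WT 1, without WT 3, and in WT 2, WT 3, KO 2 and KO 3 alone, with or without the replicate number as a block. Without overlap between groups, KO lay above WT for 3 of the 5 (Egr1, Egr3, Nab2) and below it for 0. Over all tested genes 20.9% had no overlap, 10.8% with KO above and 10.1% with KO below.

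Levels of different genes were compared per kilobase of the longest annotated transcript. In WT, Nab1 was the most abundant, at 9.78 ± 0.220 CPM per kilobase (SD, n = 3), followed by Nab2 at 4.77 ± 0.460 and Egr1 at 3.40 ± 0.678. The WT values of Nab2 (4.39 to 5.28) and Egr1 (2.78 to 4.12) did not overlap. Egr4 (0.173 ± 0.139) and Egr3 (0.152 ± 0.0275) lay far lower and within each other's spread, and Egr2 was last. In KO, Egr1 came first at 27.8 ± 6.85 CPM per kilobase (SD, n = 5). Nab2 (10.6 ± 2.22) and Nab1 (9.79 ± 1.37) followed and lay within each other's spread, then Egr4 (0.319 ± 0.208) and Egr3 (0.267 ± 0.105), also within each other's spread. The order of the levels thus changed only among the first 3 genes.

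Within a library, ratios of counts do not depend on scaling between libraries. Egr1 held 91.3% to 96.7% of the counts of the 4 EGR genes in WT and 98.0% to 99.1% in KO. The 95% Wilson intervals were 89.1% to 95.6% in WT 1, 87.8% to 93.8% in WT 2 and 94.6% to 98.1% in WT 3. That of WT 3 overlapped those of KO 3 (from 97.7%), KO 4 (from 97.5%) and KO 6 (from 97.2%), so this share was not separated between all libraries by counting error. There were 1.04, 1.08 and 1.63 Egr1 counts per Nab2 count in WT 1 to WT 3. There were 7.96 in KO 2, 5.58 in KO 3, 3.79 in KO 4, 4.03 in KO 5 and 2.72 in KO 6. The KO library with most Egr1, KO 2, had the least Nab2 of the KO libraries. Nab2 took 22.6% to 26.9% of the counts of the pair Nab1 and Nab2 in WT. That share was 31.3% in KO 2, 36.0% in KO 3 and 46.1% to 48.4% in KO 4 to KO 6. The Wilson interval of KO 2 began at 29.0% and that of WT 2 ended at 29.6%, so these 2 neighbours were not separated by counting error, while KO 3 began at 33.5%.

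**Figure D2:**
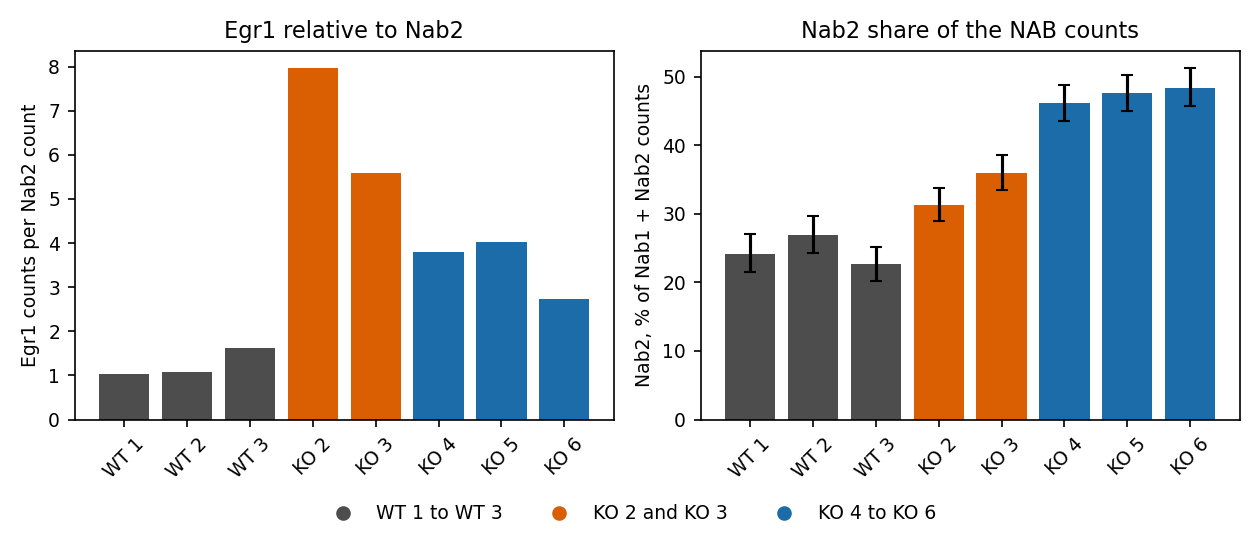
Egr1 counts per Nab2 count (left) and Nab2 as a percentage of the summed Nab1 and Nab2 counts (right) in each library, with 95% Wilson intervals for counting error on the right. The Egr1 to Nab2 ratio is highest in KO 2 at 7.96 and the Nab2 share is highest in KO 6 at 48.4%.

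The KO libraries were also taken in separate sets. KO 2 and KO 3 gave a log2 fold change of 3.25 (SE 0.16) for Egr1 against WT, and KO 4 to KO 6 gave 2.87 (SE 0.19). For Nab2 the values were 0.81 (SE 0.13) and 1.35 (SE 0.10), and for Egr3 they were 1.17 (SE 0.44) and 0.50 (SE 0.38). For Nab1 they were 0.17 (SE 0.09) and -0.11 (SE 0.09). Egr4 was at 1.27 (SE 0.58) in KO 4 to KO 6 and did not pass the filter in KO 2 and KO 3 against all 3 WT libraries. In KO 2 and KO 3 against WT 2 and WT 3 alone it was at -0.18 (SE 0.86). Both comparisons share the 3 WT libraries, and the difference between them was not tested.

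**Figure D3:**
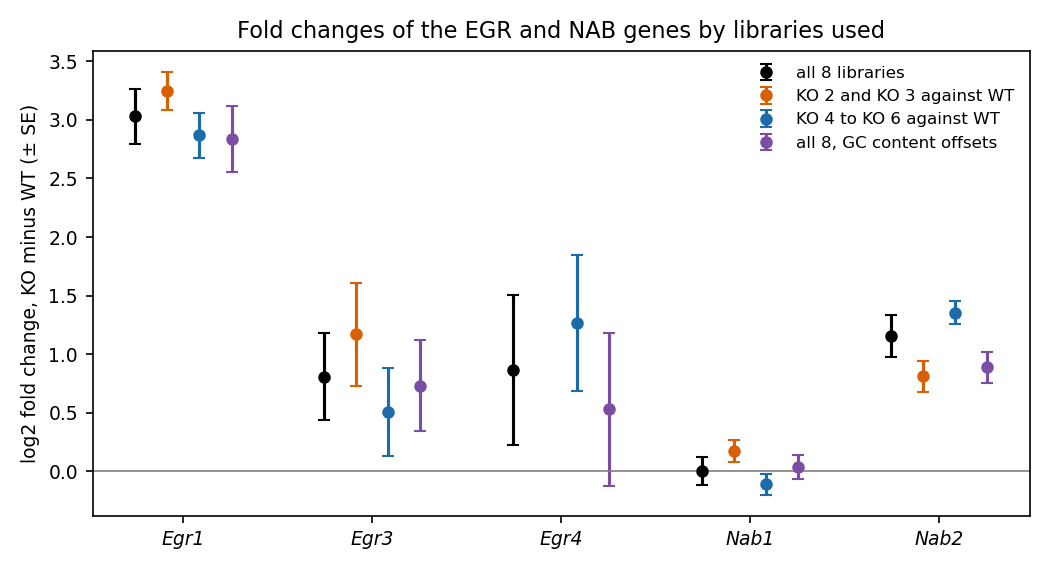
Log2 fold change of KO minus WT (points) with its standard error (bars) for the 5 fitted genes, from all 8 libraries, from 2 subsets of the KO libraries that share the WT libraries, and with each library corrected for the GC content of transcripts. Egr1 lies between 2.83 and 3.25 in all 4 fits, and Nab2 between 0.81 and 1.35.

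The study compared 3 WT with 3 KO libraries without naming those it left out. Over the 10 ways to take 3 KO libraries, Egr1 had log2 fold changes of 2.84 to 3.22 and Nab2 of 0.95 to 1.35. Those of Egr3 were 0.46 to 1.05 and those of Nab1 -0.11 to 0.11. Transcripts of Egr1 hold 57.3% GC, those of Nab2 60.1% and those of Egr4 68.2%. With each library corrected for transcript GC the log2 fold changes were 2.83 for Egr1, 0.89 for Nab2, 0.73 for Egr3 and 0.53 for Egr4.

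The Nab2 count may include reads of other genes, since counting by strand is not stated. In GENCODE M21, Nab2 overlaps the end of Stat6 by 40 bases on the other strand, the antisense transcript Gm16229 by 1050 exonic bases, and the gene ENSMUSG00000040195 (1700012D01Rik in the count table) by 151 exonic bases. Of the 31-base words of Nab2, 37.9% also occur in another gene on either strand, against 0% for Egr1 and at most 6.41% for the other members. Stat6 was at 6.04 to 7.52 CPM in WT and 7.03 to 10.8 CPM in KO, and 1700012D01Rik was at 17.9 to 19.5 CPM in WT and 13.5 to 18.5 CPM in KO. Their log2 fold changes were 0.32 (SE 0.17) and -0.27 (SE 0.12), and edgeR called neither (adjusted p = 0.264 and 0.180). Stat6 was at 0.038 in KO 2 and KO 3 and at 0.49 in KO 4 to KO 6, and 1700012D01Rik was at -0.14 and -0.35. Both were called in KO 4 to KO 6, where 8416 of 19678 genes were called, and limma called Stat6 over all 8 libraries (0.44). Gm16229 holds 33.0% of the Nab2 words, and it is not among the counted genes, so its level could not be read. The part of these 3 genes in the Nab2 difference was not tested.

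Other immediate early genes, which share the EGR genes' route of induction, were higher in part. Of 18 listed genes, edgeR called 7 higher and 1 lower, and the median difference was 0.47 (log2), or 0.31 with GC correction. Of all tested genes 4.74% were called higher and 2.84% lower, and the median over all was 0.00073. The same shares are the background for each list that follows. At an unadjusted p under 0.05 edgeR had 15.1% of all genes higher and 12.2% lower. DESeq2 called 9.72% higher and 5.79% lower, and limma called 20.3% higher and 20.6% lower. Fos, a subunit of the AP-1 factor, rose from a WT level of 14.1 ± 1.90 CPM (SD, n = 3) to 38.9 ± 5.41 in KO (SD, n = 5), by 1.46 on the log2 scale (SE 0.14, edgeR adjusted p = 0.000746). Nr4a1, an orphan nuclear receptor, rose from 18.0 ± 1.71 CPM to 48.1 ± 6.48 CPM (1.42, SE 0.13, adjusted p = 0.000564). The AP-1 genes Junb (1.27), Fosb (1.01) and Jun (0.82) and the nuclear protein gene Ier2 (1.03) rose as well. Atf3, named after its value was seen, rose by 1.47. The antiproliferative gene Btg2 fell by 0.29. The neuronal activity genes Arc (0.42, SE 0.43) and Npas4 (0.35, SE 0.29) were not called. Fos, Nr4a1, Junb and Fosb were also called in KO 2 and KO 3 against WT, at 1.37, 1.20, 0.92 and 1.11. In that comparison 0.891% of all genes were called and 0.624% called higher, with 10.1% higher and 8.82% lower at an unadjusted p under 0.05. Without WT 1, WT 2 or WT 3 in turn, edgeR called 4 of the 18 each time, and 0 of the genes of each other pathway list described here. Egr1 differed by more than any of these on the log2 scale.

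Inhibitors of ERK signalling that ERK itself induces gave 3 of 11 tested genes called higher and 0 called lower by edgeR, with a median of 0.27. At an unadjusted p under 0.05, 0 were lower, DESeq2 called 0 lower and limma called 1. The called genes were Spry4 (0.84), a brake on receptor signalling, and the nuclear phosphatases Dusp5 (0.53) and Dusp4 (0.52). With GC correction Dusp5 and Dusp4 were both at 0.31 and still called. Dusp6 (0.27, SE 0.12) and Dusp1 (0.28, SE 0.18) were not called. In KO 2 and KO 3 against WT edgeR called 0 of the 11, with 4 higher at an unadjusted p under 0.05. Among 20 kinases and factors upstream of EGR genes, edgeR called only Mrtfa (0.61, and 0.36 with GC correction), an SRF coactivator, and the median was 0.10. Without KO 3 it called 8 of the 20 in either direction (3992 of all 19920 genes), and without KO 2 it called 5 (2781 of 20026). Leaving out KO 4, KO 5 or KO 6 gave 0, where 365, 388 and 531 of all genes were called. At an unadjusted p under 0.05, 8 were higher and 2 lower, DESeq2 called 6 higher and 0 lower, and limma called 9 higher and 5 lower, against 20.3% and 20.6% of all genes. SRF itself (0.45, SE 0.16) and its ERK-regulated partner Elk1 (-0.01, SE 0.09) were not called.

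**Figure D4:**
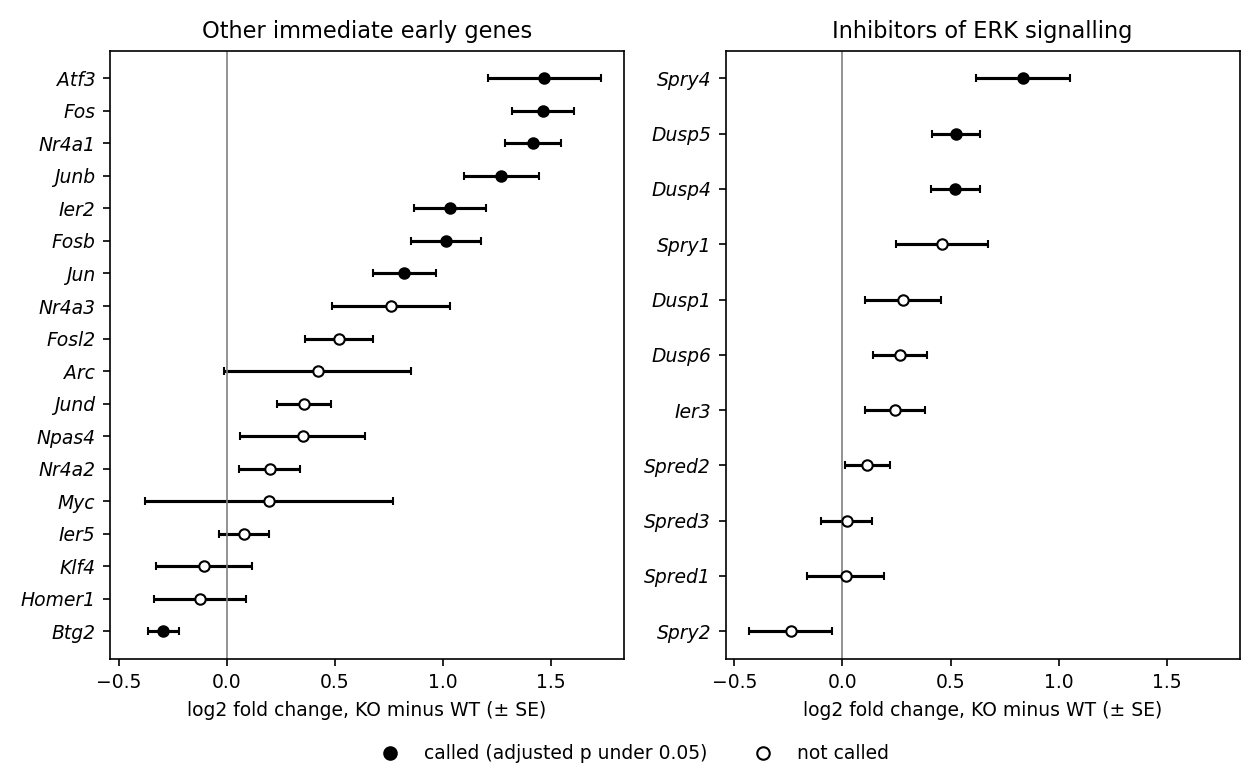
Log2 fold change of KO minus WT (points) with its standard error (bars) over all 8 libraries for the 18 listed immediate early genes other than EGR and the 11 tested inhibitors of ERK signalling; filled points were called by edgeR at an adjusted p under 0.05. In the left panel 7 genes are called higher and 1 lower, and in the right panel 3 are called higher.

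Of 15 tested genes that are described as EGR targets, edgeR called 0 higher and 1 lower, with a median of 0.14. In KO 2 and KO 3 against WT it called 0 of the 15. Without KO 2 it called 3 in either direction (2781 of all 20026 genes), and without KO 3 also 3 (3992 of 19920). At an unadjusted p under 0.05 there were 3 higher and 1 lower, DESeq2 called 1 higher and 1 lower, and limma called 4 higher and 2 lower. The called gene was Vegfa, a vascular growth factor, which fell by 0.38 (SE 0.09, edgeR adjusted p = 0.0317). Its WT level was 128 ± 6.27 CPM (SD, n = 3) and its KO level 98.4 ± 7.19 (SD, n = 5). Of all genes, DESeq2 called 9.72% higher and 5.79% lower, and limma 20.3% and 20.6%.

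Of the CHD and NuRD chromatin complex, through which NAB proteins are described to repress, edgeR called 4 of 14 genes higher (4.74% of all genes) and 0 lower, with a median of 0.16. At an unadjusted p under 0.05, 1 was lower, DESeq2 called 0 lower and limma called 2. The helicase genes Chd4 (0.57), whose product binds NAB2, and Chd5 (0.44) rose, with the subunits Gatad2a (0.64) and Mbd3 (0.54). With GC correction the median of the list was 0.070, Mbd3 was at 0.26 and still called, and Chd5 was not called (0.22, edgeR adjusted p = 0.197), where 7.03% of all genes were called and 4.24% called higher. In KO 2 and KO 3 against WT edgeR called 0 of the 14, with 5 higher and 1 lower at an unadjusted p under 0.05. Of 11 other zinc finger factors that bind GC-rich letters, edgeR called only Klf10 (0.83), an early response gene, and the median was -0.15, which turned to 0.10 with GC correction. It called 0 lower, where 1 was lower at an unadjusted p under 0.05, DESeq2 called 1 and limma 5.

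Cell type markers were read beside these genes. Of 7 amacrine and 7 bipolar markers edgeR called 0, with 2 amacrine and 3 bipolar markers higher and 1 bipolar marker lower at an unadjusted p under 0.05. DESeq2 called 1 amacrine marker higher and 1 bipolar marker in each direction, and limma called 2 amacrine markers higher and 3 bipolar markers higher and 2 lower. DESeq2 called 9.72% of all genes higher and 5.79% lower, and limma 20.3% and 20.6%. Bipolar markers summed to 846 to 917 CPM in WT and 822 to 1030 CPM in KO. Amacrine markers summed to 775 to 809 CPM in WT and 781 to 995 CPM in KO. Muller glia markers summed to 3610 to 3800 CPM in WT and 3660 to 5470 CPM in KO, with 2 of 7 called higher, Sox9 and Kcnj10, and 5 higher at an unadjusted p under 0.05. Microglia markers summed to 47.5 to 52.8 CPM in WT and 55.3 to 74.6 CPM in KO, with 2 of 7 called higher, Tmem119 and Csf1r, and 0 of 7 with GC correction. In KO 2 and KO 3 against WT edgeR called 0 of the 7 Muller glia and 0 of the 7 microglia markers, with 3 of each higher at an unadjusted p under 0.05. Endothelial markers summed to 143 to 149 CPM in WT and 193 to 291 CPM in KO. Most of that sum was Kdr, a receptor for Vegfa, which averaged 116 ± 2.96 CPM in WT (SD, n = 3) and 219 ± 36.1 in KO (SD, n = 5). It was the 1 of 5 called (0.92), and the other 4 overlapped between groups. Pericyte and smooth muscle markers summed to 87.2 to 93.4 CPM in WT and 97.4 to 152 CPM in KO, with 1 of 5 called, Pdgfrb (0.93). The highest sum was that of KO 3, the library with lens transcripts, where Acta2 was at 33.6 CPM. Acta2 was at 2.22 to 4.08 CPM in the other KO libraries. Kdr and Pdgfrb were also called in KO 2 and KO 3 against WT. The rod gene Sag (0.87) was called higher, as 1 of 7 rod markers, and the horizontal cell gene Calb1 fell by 0.49, as 1 of 5. The called markers are named after their values were seen. Their part in the Egr1 and Nab2 differences was not tested.

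The genes whose pattern over the 8 libraries was most like that of Nab2 included 2 immediate early genes. Likeness was the root mean square difference of log2 CPM after each gene's mean was subtracted, over 14886 genes. Nearest to Nab2 were Ier2 (0.0983), Junb (0.123), Nherf1 (0.123), a scaffold of membrane proteins, Ppp1r18 (0.128), which encodes a phosphatase partner, and Asap3 (0.135). These genes had lower levels in KO 2 and KO 3 than in KO 4 to KO 6, as Nab2 had. Nearest to Egr1 were Loxl4 (0.282), a lysyl oxidase, Prok1 (0.397), a prokineticin, Gm3716 (0.411), Gm41793 (0.413) and Rdh1 (0.445), a retinol dehydrogenase. The fits to Egr1 were looser than those to Nab2, and no other listed immediate early gene was among them. The measure includes the size of the KO to WT difference, which was smaller in each of those genes than in Egr1. Neither the looser fits nor that absence can therefore be read as a result. The same holds for the early genes near Nab2, whose differences were close to its own in size. All these points share the same libraries, and likeness says nothing of shared control.

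**Figure D5:**
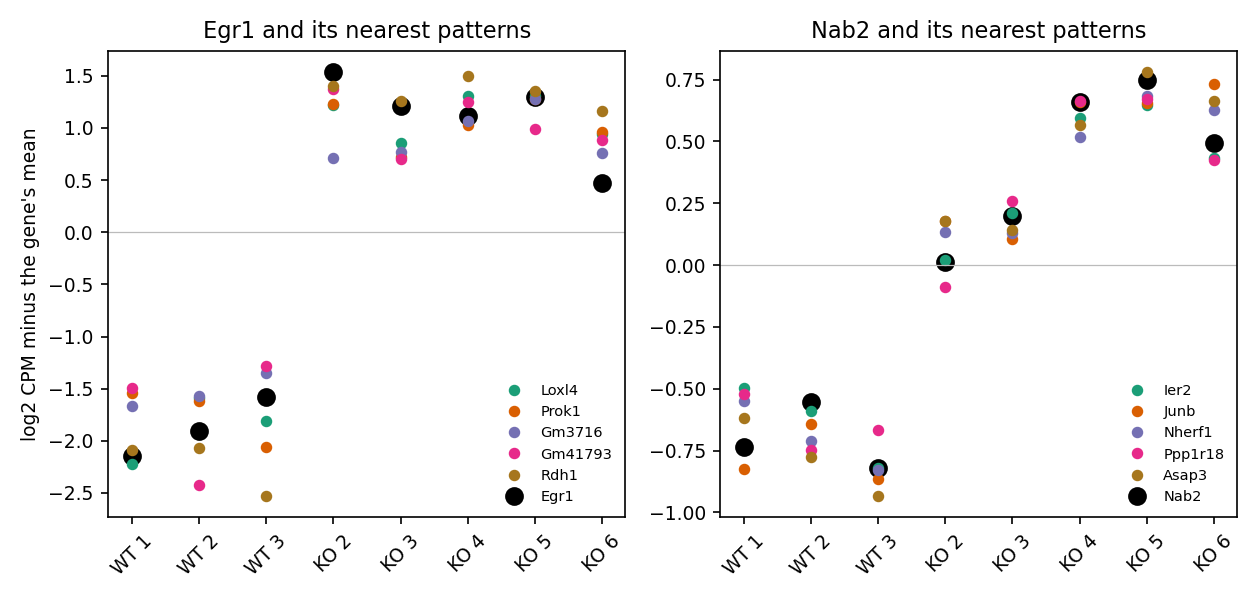
Log2 CPM minus each gene's mean over the 8 libraries for Egr1 (left) and Nab2 (right), shown as large black points, and for the 5 genes with the nearest pattern to each (small points). For Egr1 the KO libraries run from 0.47 in KO 6 to 1.54 in KO 2, all above WT, while around Nab2 the libraries KO 2 and KO 3 lie between WT and KO 4 to KO 6.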

How the data were processed

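Reads were processed by the authors with Trim Galore, Salmon 1.10.2 and DESeq2 on genome build GRCm38, per the submitters' processing notes, which give no roles. The authors deposited estimated counts per gene as whole numbers, taken here as rounded Salmon estimates. The annotation release, strand setting and filters are not given in the sources used here, and the lowest row total is 16. GENCODE M21 (GRCm38) held 22121 of the 26824 identifiers and served for positions, GC content and length of the longest transcript, and shared 31-base words.

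Counts were scaled by edgeR's TMM factors and tested with edgeR 4.0.16 (R 4.3.3) by quasi-likelihood on all 8 libraries with no covariate, after filterByExpr. Benjamini-Hochberg adjustment ran over the 20167 tested genes, with calls at an adjusted p under 0.05. Standard errors come from the fold change and F. Levels are TMM-scaled CPM. Alternatives used DESeq2 1.42.0 and limma 3.58.1 (voom with quality weights). Intervals and the 3-count floor cover counting error only. Replicates are separate mice per the labels. All 8 libraries were used, since the 2 KO samples that the study left out are not named. No pair within a group agreed within sampling noise (chi-square per degree of freedom at least 5.85). WT pairs had values of 8.2 to 17.8 and KO pairs of 5.85 to 116, the largest in pairs with KO 3.

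In simulated counts, edgeR called 115 of 200 genes changed 2-fold among 19694 tested, and 187 of 200 changed 8-fold among 19724. It also called 6 and 13 unchanged genes. The counts were drawn independently for each library, without sets of KO libraries that move together, so these rates need not hold in the real data.

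Members, gene lists and the split of the KO libraries were chosen with earlier results of these data known. Named genes are the members, Kcnv2, Stat6, up to 6 called genes per list and direction, and the 5 nearest patterns to Egr1 and to Nab2; others are named as values beside them.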

Additional observations from a re-analysis of the deposited data

Results flagged for a closer look

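Gaps were looked for in 29 values of the 5 KO libraries, and in 5 of them the gap to the nearest library exceeded 0.71 of the group's range. Chance alone would give about 1.4 for independent values. These values share the same 5 libraries and some are ratios of others, so that figure is only a rough guide. Egr3 in KO 3 (1.76 CPM) was above the other KO libraries with a gap of 0.715 of the range. Kcnv2 in KO 2 was high with a gap of 0.738. Vegfa in KO 2 was low with a gap of 0.790, and Chd5 in KO 3 was low with a gap of 0.901. Lens markers in KO 3 were high with a gap of 0.996.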

How the results depend on the processing

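Genes called numbered 1529 (62.5% higher) with all libraries. They numbered 3127 with DESeq2, 8248 with limma voom (49.5% higher), 180 in KO 2 and KO 3, 8416 in KO 4 to KO 6 (52% higher) and 118 to 3992 with libraries left out. They numbered 132, 135 and 199 without WT 1, WT 2 and WT 3, and 3992 without KO 3. Scaling by library size alone gave 1353, of which 41.8% were higher. Of the pathway lists' genes 18 were called, against 52 with limma voom, 4 in KO 2 and KO 3, 55 in KO 4 to KO 6 and 3 to 29 with libraries left out.

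Replicate numbers 2 and 3 occur in both groups, but no label ties animals of equal number together, and same-number correlations were -0.0044 and -0.24. With the replicate number as a block (WT 2, WT 3, KO 2, KO 3), 52 genes were called, 2 of them in the lists. The same 4 libraries unblocked gave 14 and 1, block with GC offsets 176 and 2, and the crossed pairing, added after seeing the data, 527 and 5. Nab2 was not called with the block (0.80), unblocked (0.79) or with block and GC offsets (0.72), and was called with the crossed pairing (0.80). Egr4 was -0.0082, -0.18 and -0.165 in these, and -0.0054 with the crossed pairing.

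Egr1 was chosen for its rise in these libraries, so its values over alternatives (2.83 to 3.25) add no support. Leaving out libraries gave 2.84 to 3.22 for Egr1, 0.46 to 1.05 for Egr3, 0.41 to 1.75 for Egr4, -0.069 to 0.11 for Nab1 and 0.95 to 1.26 for Nab2, which was not called without WT 1 (1.13) or WT 3 (1.09). Egr4 was called by limma voom alone (1.49). Nab1 was -0.037 with library size alone, -0.0028 with CPM of at least 1 in 3 libraries, -0.080 with limma voom, -0.014 with length offsets and -0.11 in KO 4 to KO 6. The causes were not tested. Egr2, Egr3 and Egr4 had at most 37 counts in a library, and the part of depth in their values was not tested.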

Other observations

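Genes with an EGR site (GCGNGGGCG) in a RefSeq promoter window, the 6 EGR and NAB genes left out, were described beside those without, with no test. Of 1243 such genes edgeR called 7.32% higher and 2.49% lower. Of 11493 genes without the site it called 5.14% higher and 2.95% lower. The median GC content of transcripts was 50.5% with the site and 49.5% without. With GC correction, 5.56% and 4.34% were called higher. In KO 2 and KO 3 against WT, 16 of 1245 (1.29%) and 69 of 11519 (0.599%) were called higher.

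Of 15 immediate early genes with a window, 6 held an EGR site (Btg2, Fosb, Fosl2, Klf4, Nr4a1 and Nr4a2), 6 the core ACGTCA (Atf3, Btg2, Fos, Homer1, Npas4 and Nr4a3) and 0 a CArG box in these 250 bases. Of all 27025 genes with a window, 5.33% held an EGR site, 7.29% the core and 1.62% a CArG box. The cone markers, 7 in number, summed to 815 to 1020 CPM in WT and 549 to 723 CPM in KO, with 2 called lower by edgeR. Their median log2 fold change was -0.47, and edgeR called 2.84% of all genes lower. DESeq2 called 4 lower, against 5.79% of all genes. By limma 5 were lower and 1 higher, against 20.6% and 20.3%. In KO 2 and KO 3 against WT edgeR called 2 lower, where 0.891% of all genes were called. The part of cone cells in the Egr1 and Nab2 differences was not tested.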
